A study of Arabidopsis thaliana with 11 samples.

Results

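The comparison described here is between Arabidopsis thaliana seedlings of the iSPCH line after 8 h of estradiol and seedlings of that line after 6 h. It takes 4 of the 11 libraries of the series, 2 at each hour, and all genes of the table. The iSPCH seedlings carry ESTpro:SPCH1-4A-YFP, an estradiol-switched gene for a fluorescently tagged variant of SPEECHLESS (SPCH), and the labels do not name the accession that carries it. Whole seedlings, 4 days old and raised in light, were given 10 µM estradiol for 8 h or 6 h before RNA was extracted. Wild-type (WT) seedlings of the accession Col that received the same estradiol for 8 h and 6 h, with 2 libraries at each hour, served as the line without the transgene. Untreated seedlings of both lines (0 h, 2 iSPCH libraries and 1 WT library) entered the estimate of the spread and are named only where their level is given. Estradiol and the hour of harvest changed together in both lines, so their parts in a change cannot be told apart within a line.

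SPCH is a basic helix-loop-helix transcription factor that starts the stomatal lineage of the leaf epidermis. It acts with the related proteins ICE1 (SCREAM) and SCRM2, and it sets off asymmetric divisions that renew a small precursor cell and enclose it among larger epidermal cells. Secreted peptides such as EPF2, sensed by TMM and by receptor kinases of the ERECTA family, hold it in check through a MAP kinase cascade that phosphorylates SPCH. The 1-4A form lacks phosphorylation sites of that cascade. The labels name an estradiol-responsive promoter and no tissue for it, and they do not say how many independent transformed lines were used.

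The values are reads per gene divided by a library's size factor, written below as normalised counts. The deposited table holds 1 mean per group, and the reads of each library were recovered from those means. In each pair the deeper library is called A and the other B. The 4 iSPCH libraries held 20392472 and 18481295 reads assigned to genes at 8 h, against 28431405 and 15553670 at 6 h, and the 4 WT libraries held 20461809 to 27040664. Between the libraries of a pair, the variance of gene counts was 2.47 times the sampling variance in iSPCH at 8 h and 3.47 times in iSPCH at 6 h. Whether the 2 libraries of a group came from separate sowings or plants is not in the labels. The p-values therefore rest on the spread between these libraries, which may be technical. Changes are log2 differences of the normalised count plus 1, 8 h over 6 h, with their standard error, and n = 2 libraries per group throughout. "Rose", "fell" and "called" refer to an adjusted p under 0.05 (limma, Benjamini-Hochberg over 19691 genes).

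SPCH transcript changed little between these hours. SPCH (AT5G53210; chromosome 5, 21586219 to 21589255 on the minus strand, TAIR10.1) had 41639 and 39757 normalised counts in iSPCH at 8 h, against 37224 and 37521 at 6 h. The WT values were 99.5 and 141 at 8 h, against 103 and 130 at 6 h. The 2 hours do not overlap in iSPCH, as for 47.2% of all genes tested. The difference of 0.12 ± 0.19 was not called (adjusted p = 0.780), with a 95% interval of -0.31 to 0.56. That test uses a spread shared over all groups. In proportion to their counts, the WT pairs lay further apart than the iSPCH pairs at 8 h and 6 h. The p-value and interval therefore do not measure the spread of the iSPCH pairs alone. The counts do not separate transgene reads from those of the native gene.

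Beside that small change of SPCH transcript, 1499 of 19691 genes differed between 8 h and 6 h in iSPCH (7.61%). Of these, 784 rose (3.98%) and 715 fell (3.63%), and 160 of the higher genes (0.813% of all tested) and 118 of the lower (0.599%) changed by at least 2-fold. In WT, 83 genes passed the test between the same hours (0.422%), 41 higher and 42 lower. The counts were lowest for iSPCH without 8 h library B, at 759 genes, and were 851 without 8 h library A. In WT the count was 5 without WT 8 h library A, 6 without WT 6 h library B and 27 without WT 6 h library A, 145 without WT 8 h library B, and 199 and 192 without iSPCH 6 h libraries A and B. The share of higher genes depended on the scaling. It was 52.3% with size factors and 63.7% when libraries were scaled by their total reads (1035 higher, 589 lower). It was 62.6% without iSPCH 6 h library A (709 higher, 423 lower), and 41.8% without iSPCH 6 h library B (548 higher, 762 lower).

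The test of the difference between the lines, which asks whether iSPCH moved more or less than WT over the same hours, called 220 genes (1.12%), with 175 more positive (0.889%) and 45 more negative (0.229%) in iSPCH. It called 105 without WT 6 h library A, 114 without WT 6 h library B, 128 without iSPCH 8 h library A and 136 without WT 8 h library A. The 784 genes that rose in iSPCH had a median change of 0.64 there and 0.05 in WT, where 459 were above 0 and 325 below. The 715 that fell had a median of -0.59 in iSPCH and -0.22 in WT, where 642 were below 0. Both sets were chosen by their iSPCH change, so their medians are not a comparison of size between the lines. The difference itself was called for 169 of the 784 and 42 of the 715. The WT pairs share no library with the iSPCH pairs. Across all tested genes the changes in the 2 lines had a Pearson correlation of 0.275, a description across genes, which are not independent replicates. Over all genes the median change was -0.01 in iSPCH and 0.01 in WT.

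**Figure D1:**
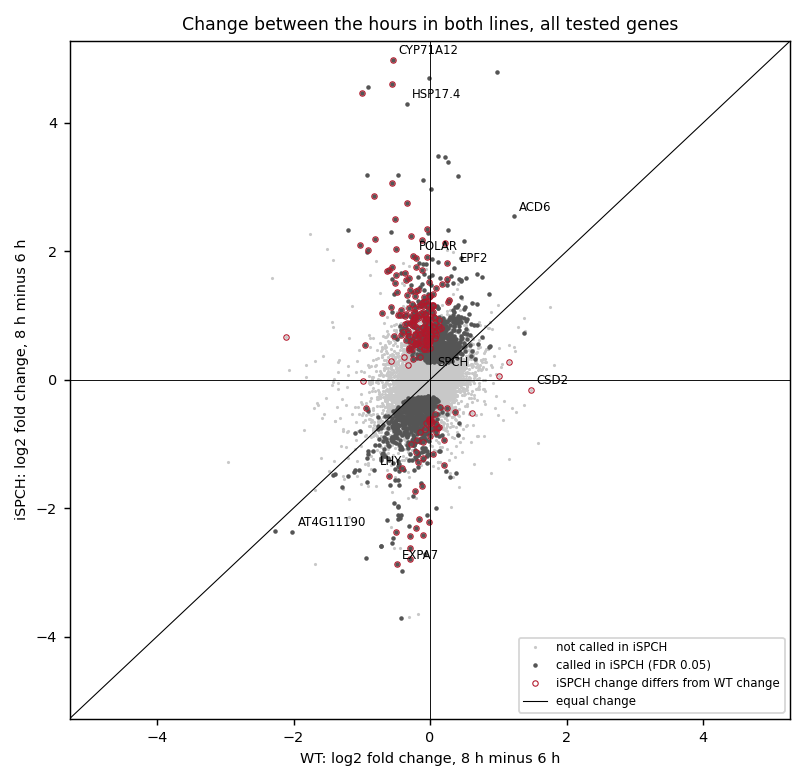
Change from 6 h to 8 h in iSPCH (vertical axis) and in WT (horizontal axis), both as log2 of normalised count plus 1, 1 point per tested gene. Dark points are genes called in iSPCH, 784 above 0 and 715 below, red rings are the 220 genes whose change differed from that of WT, and the diagonal marks equal change.

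Several early stomatal lineage genes rose. Of 28 listed genes of the lineage, SPCH itself left aside, 27 were tested, and 11 rose while none fell (40.7% called higher, beside 3.98% of all genes). The 27 had 18 changes above 0 and 9 below, and their median was 0.29, against -0.01 for all genes, and none of the 27 was called in WT by limma, edgeR or DESeq2 (2 had an unadjusted p under 0.05), where the median was -0.02. In bulk RNA of whole seedlings, a change in the number of lineage cells and in RNA per cell cannot be told apart. The largest increases were in genes of cell polarity and of feedback signalling. The sequence upstream of 2 of these genes is shown first, because SPCH is known to bind DNA as a basic helix-loop-helix protein, whose general site is the E-box CANNTG (read on both strands, and including the G-box CACGTG). The windows are the 250 bases before the annotated gene start (RefSeq, TAIR10.1), EPF2 at chr1:12472618-12472867 on the plus strand and BASL at chr5:24489837-24490086 on the minus strand, each 5′ to 3′ along its gene with E-boxes in capitals.
EPF2: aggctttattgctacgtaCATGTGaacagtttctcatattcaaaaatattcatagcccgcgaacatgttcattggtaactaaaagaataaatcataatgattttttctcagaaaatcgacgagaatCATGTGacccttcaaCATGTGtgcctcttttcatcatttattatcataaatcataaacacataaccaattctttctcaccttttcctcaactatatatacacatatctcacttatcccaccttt
BASL: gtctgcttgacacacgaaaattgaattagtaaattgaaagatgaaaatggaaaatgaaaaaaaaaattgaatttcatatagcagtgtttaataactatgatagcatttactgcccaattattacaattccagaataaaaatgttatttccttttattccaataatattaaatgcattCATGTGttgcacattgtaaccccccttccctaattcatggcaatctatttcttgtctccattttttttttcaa
The EPF2 window holds 3 E-boxes and the BASL window 1. Of the 11 genes that rose, 5 have an E-box in this window, while 55.3% of 27437 annotated promoters of the same length have one, so these letters do not set the group apart.

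EPF2 (AT1G34245; chromosome 1, 12472868 to 12473974), the secreted peptide by which lineage cells restrain their neighbours, had 375 and 365 normalised counts in iSPCH at 8 h, against 143 and 84.0 at 6 h. Both libraries at 8 h stood more than 2-fold above either library at 6 h in this line. WT seedlings had 7.86 and 20.4 at 8 h, against 9.48 and 10.1 at 6 h, which overlap. Its change in iSPCH was 1.74 ± 0.38 (3.35-fold, adjusted p = 0.0152). The call was lost without iSPCH 6 h library B (adjusted p = 0.0852), 8 h library A (0.0776) or 8 h library B (0.0798). Its change was not shown to differ from that of WT (difference 1.39, adjusted p = 0.406).

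POLAR and BASL code for proteins that collect on one side of a precursor cell before it divides asymmetrically. POLAR (AT4G31805; chromosome 4, 15385280 to 15387097) had 645 and 690 normalised counts in iSPCH at 8 h, against 179 and 169 at 6 h. Its counts in WT were 35.8 and 49.9 at 8 h, against 50.2 and 50.3 at 6 h. The WT hours lay close together and the iSPCH hours far apart, with a change of 1.93 ± 0.16 (3.81-fold, adjusted p = 1.5e-05), and the change exceeded that of WT by 2.18 ± 0.23 (adjusted p = 0.000576). Both calls held in every alternative tried. The annotated span of POLAR overlaps that of AT4G31810, and reads in the overlap could belong to either. AT4G31810 had 285 and 280 normalised counts in iSPCH at 8 h, against 243 and 267 at 6 h (adjusted p = 0.487). BASL (AT5G60880; chromosome 5, 24488289 to 24489836) had 140 and 168 in iSPCH at 8 h, against 52.0 and 51.8 at 6 h. In WT it had 17.5 and 18.1 at 8 h, against 22.7 and 23.1 at 6 h, lower at the later hour. The change in iSPCH was 1.55 ± 0.21 (2.92-fold, adjusted p = 0.000430), and the difference from WT was 1.90 ± 0.30 (adjusted p = 0.00582), both of which held in every alternative.

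The receptors and partners of SPCH rose by less. ERL1, a receptor kinase of the ERECTA family, had 214 and 241 normalised counts in iSPCH at 8 h, against 122 and 98.0 at 6 h, a change of 1.05 ± 0.19 (adjusted p = 0.00341) that held in every alternative. TMM had 3856 and 3577 at 8 h, against 2746 and 2596 at 6 h, a change of 0.48 (adjusted p = 0.0149). The TMM call was lost without iSPCH 6 h library B (adjusted p = 0.0718), 8 h library A (0.113) or 8 h library B (0.0509). The partner gene ICE1 had 3397 and 3388 in iSPCH at 8 h, against 2421 and 2469 at 6 h, a change of 0.47 (adjusted p = 0.00185). SCRM2 had 1871 and 2011 at 8 h, against 1360 and 1280 at 6 h, a change of 0.56 (adjusted p = 0.000589). In WT, SCRM2 had 686 and 743 at 8 h, against 789 and 756 at 6 h. Both partners stood higher at 8 h in each iSPCH library, by less than 2-fold. The change exceeded that of WT by 0.67 for SCRM2 (adjusted p = 0.00827, or 0.0590 without WT 6 h library A) and by 0.51 for ICE1 (adjusted p = 0.0411). The ICE1 difference lost its call without any 1 of 7 of the 8 libraries, at an adjusted p of up to 0.235. ERL1 differed from WT by 1.29 (adjusted p = 0.0329, or up to 0.187 with 1 library left out, a call that ended without iSPCH 6 h B, 8 h A, 8 h B, WT 6 h B or WT 8 h A).

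Among the remaining members, the genes TCX2 and SOL1 (AT3G22760), for related DNA-binding proteins that help to control division and fate in the lineage, also rose. TCX2 had 304 and 331 normalised counts in iSPCH at 8 h, against 187 and 176 at 6 h. Its change of 0.80 ± 0.11 (adjusted p = 0.000498) exceeded that of WT by 0.90 (adjusted p = 0.0102, or 0.0582 without WT 6 h library A). SOL1 had 298 and 354 at 8 h, against 219 and 151 at 6 h, a change of 0.83 (adjusted p = 0.0255, or 0.153, 0.0570 and 0.181 without iSPCH 6 h B, 8 h A and 8 h B). CLE9, a gene for a secreted peptide, rose by 0.96 (adjusted p = 0.0126, or 0.0723, 0.0621 and 0.0942 without the same libraries). HDG2, a homeodomain factor that promotes stomata, rose by 0.36 (adjusted p = 0.0220, or 0.0944 without iSPCH 6 h A and 0.188 without 8 h B). TCX2, ERL1, SOL1 and HDG2 overlap other annotated genes, and the counting is not stated to use strand. The genes of the later steps were not called. MUTE, which ends precursor division, had 8.49 and 10.4 normalised counts in iSPCH at 8 h, against 7.88 and 16.8 at 6 h. FAMA, which drives guard cell formation, had 492 and 509 at 8 h, against 411 and 406 at 6 h, a difference of 0.29 (adjusted p = 0.0726). The kinase genes of the cascade were not called either, among them MPK3 with 1229 and 1274 at 8 h, against 1080 and 1154 at 6 h. The count of 11 became 10 without iSPCH 6 h library A, 7 without 6 h library B, 7 without 8 h library A and 6 without 8 h library B. The difference test called 6 of the 27, all more positive in iSPCH, beside 0.889% of all genes.

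**Figure D2:**
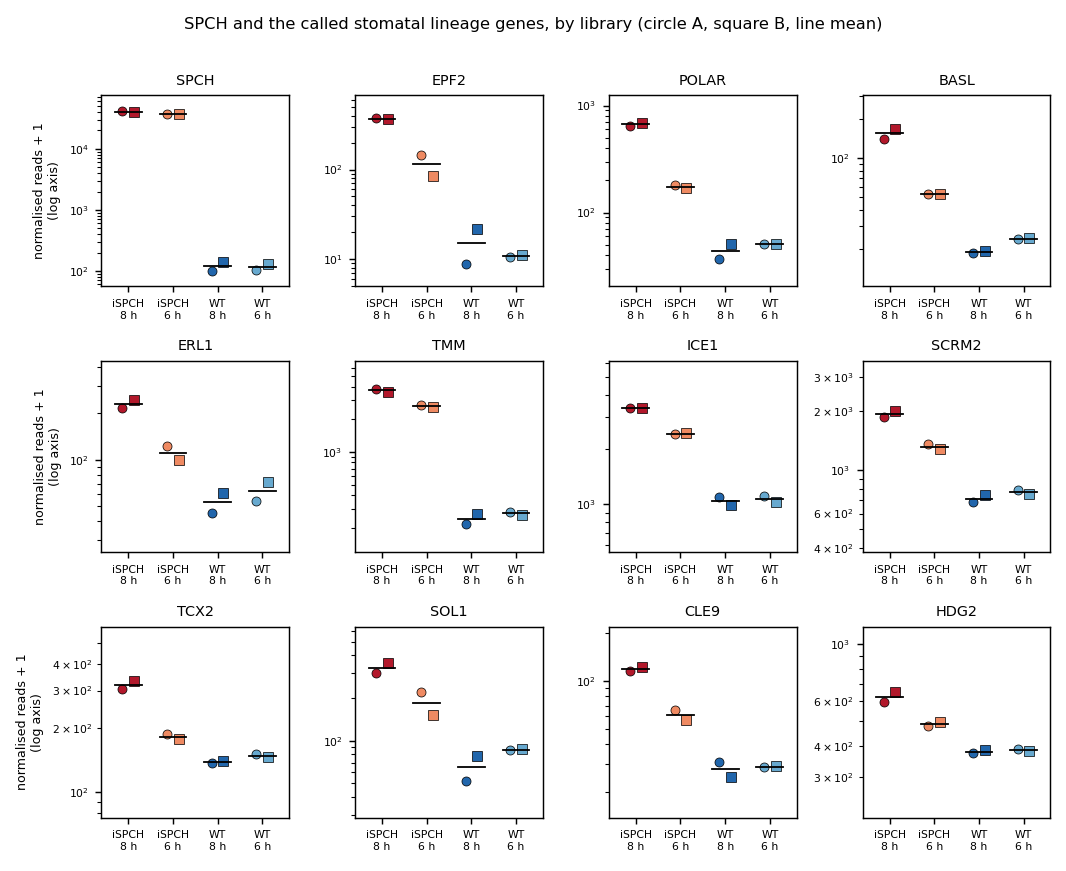
Normalised counts plus 1 (log axis) of SPCH and the stomatal lineage genes that rose, in each library, iSPCH at 8 h and 6 h and then WT at 8 h and 6 h, circles for library A, squares for library B and a line for the mean. The 8 h iSPCH points lie above the 6 h ones for EPF2, POLAR and BASL, while those of SPCH, between 37224 and 41639, lie close together.

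Of 13 listed genes of mature guard cells, 3 rose (23.1%, beside 3.98% of all genes) and none fell. The 3 became 2 without iSPCH 6 h A, 6 h B or 8 h A, and 1 without 8 h B. CHX20, a cation exchanger of guard cells, rose by 0.65 (adjusted p = 0.00152) and differed from WT by 0.69 (adjusted p = 0.0395, or up to 0.266 under the alternatives). TGG1, a myrosinase, rose by 0.42 (adjusted p = 0.00494, or 0.0640 without iSPCH 8 h library B). SLAC1, the anion channel of stomatal closure, rose by 0.86 (adjusted p = 0.0286, or up to 0.179 without any 1 of the 4 iSPCH libraries). The potassium channel genes KAT1, KAT2 and GORK, the kinase gene OST1 and the factor gene MYB60 were not called. In the list of epidermis and cuticle genes, 4 of 18 fell, beside 3.63% of all genes. All 4 are for wax synthesis (CER2, CER3, CER4 and CER6), and each of those calls was lost under some alternative. The 4 became 0 without iSPCH 6 h A, and 1 without 8 h A or 8 h B.

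Root hair genes were lower at 8 h. The list holds 25 genes of hair cell fate and hair wall growth, of which 21 had enough reads to be tested. All 21 had a value below 0 in iSPCH, with a median of -1.33, and 10 fell while none rose (47.6% called, beside 3.63% of all genes called lower). In WT 20 of the 21 were below 0 with a median of -0.24, and none was called by limma, edgeR or DESeq2 or had an unadjusted p under 0.05. EXPA7 (AT1G12560; chromosome 1, 4276505 to 4277969), an expansin that loosens the hair wall, had 5.31 and 6.92 normalised counts in iSPCH at 8 h, against 79.6 and 32.2 at 6 h. The WT values were 85.5 and 83.9 at 8 h, against 119 and 120 at 6 h. The iSPCH libraries at 8 h stood far below all other libraries, and those at 6 h differed from each other by more than 2-fold. Its change was -2.87 ± 0.31 (7.32-fold lower, adjusted p = 0.000190). The difference from WT was -2.38 ± 0.45 (adjusted p = 0.0220), a call that was lost without iSPCH 8 h A, 8 h B or any of the 4 WT libraries, at an adjusted p of up to 0.127.

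LRL3, a helix-loop-helix factor that promotes hair growth, had 11.7 and 9.23 normalised counts in iSPCH at 8 h, against 57.5 and 64.4 at 6 h. WT seedlings had 63.7 and 85.0 at 8 h, against 76.8 and 107 at 6 h. Only iSPCH at 8 h was low, with a change of -2.44 ± 0.23 (adjusted p = 3.2e-05) and a difference from WT of -2.15 (adjusted p = 0.00428), both kept in every alternative. COBL9, a membrane-anchored wall protein of hairs, had 2.12 and 5.77 in iSPCH at 8 h, against 30.7 and 18.204 at 6 h, a change of -2.42 (adjusted p = 0.000476). Its counts in WT were 64.6 and 75.9 at 8 h, against 74.9 and 76.5 at 6 h. The COBL9 difference from WT of -2.31 (adjusted p = 0.0272) was lost without any 1 of the WT libraries, at an adjusted p of up to 0.128. Of the factors that set hair growth, RSL2 fell by 1.56 (adjusted p = 0.00385), and RSL4 had 15.9 and 23.1 at 8 h, against 40.2 and 54.6 at 6 h. RSL4 fell by 1.25 (adjusted p = 0.00624, or 0.0528 without iSPCH 6 h B and 0.0649 without 8 h A). The upstream regulator RHD6 and the hair suppressor GL2 were not called. EXPA18, COW1, RHS12, RHS19, PRP3 and XTH14 fell as well, and each of these 6 calls was lost in at least 1 alternative. Without 1 iSPCH library the list's count ranged from 5 (8 h A) and 6 (8 h B) to 9 (6 h A) and 13 (6 h B).

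In each line the hours of treatment followed one order. The summed normalised counts of the root hair list were 4589 and 5197 in untreated iSPCH seedlings, 1832 and 1384 at 6 h, and 1048 and 993 at 8 h. In WT they were 5514 untreated, 2410 and 2565 at 6 h, and 1929 and 2150 at 8 h. Both lines were lowest at 8 h. The sums of iSPCH were below those of WT at 6 h, at 8 h and also untreated, where WT had 1 library. Among other steep falls, the peroxidase gene AT1G30870 had 14.9 and 28.8 in iSPCH at 8 h, against 177 and 126 at 6 h, a change of -2.79 ± 0.25 (adjusted p = 9.5e-05) and a difference from WT of -2.49 (adjusted p = 0.00693). The neighbouring peroxidase genes AT1G05240 and AT1G05250 fell, with changes of -2.59 and -2.58, but they are near-identical copies that share reads and count as 1 observation. AGP30, an arabinogalactan protein, had 88.1 and 117 in iSPCH at 8 h, against 337 and 339 at 6 h, and in WT 228 and 268 at 8 h, against 283 and 290 at 6 h. It fell by 1.73 (adjusted p = 5.6e-06) and differed from WT by -1.51 (adjusted p = 0.000871). In the class III peroxidase family, taken by RefSeq product name, 14 of 52 tested genes fell and 7 rose, beside 3.63% and 3.98% of all genes. The 14 count both copies above, and the 7 count DOX1, an oxygenase that shares the product name. Without 1 iSPCH library the lower count was 9 (6 h A), 12 (6 h B), 10 (8 h A) and 8 (8 h B), and the higher count 5, 3, 2 and 5 in the same order. In the alpha-expansin family 4 of 17 fell, beside 3.63% of all genes. The 4 include EXPA7 and EXPA18, which the root hair list already counts. These 2 families, and below the camalexin, berberine bridge enzyme-like, glutathione transferase, WRKY and small heat shock groups, were put together after values were seen and serve as description. The other lists were chosen with earlier results of these data known, so their shares are description as well. Root tissue markers outside hairs moved less. Of 9, CASP1 (-0.65) and SHR (-0.47) fell, beside 3.63% of all genes, and both calls were lost under some alternative.

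The 15 steepest falls hold genes outside the lists. AT2G34910, annotated as root hair specific, had 8.49 and 11.5 normalised counts in iSPCH at 8 h, against 51.2 and 54.6 at 6 h, a change of -2.30 (adjusted p = 3.3e-05). The WT libraries held 56.7 and 65.7 at 8 h, against 77.7 and 64.4 at 6 h, which overlap. AT2G47540, a protein of the Ole e 1 and extensin family, had 8.49 and 14.997 in iSPCH at 8 h, against 52.0 and 57.4 at 6 h, a change of -2.17. Its WT libraries held 84.7 and 99.7 at 8 h, against 98.6 and 108 at 6 h. Both genes stood apart in iSPCH at 8 h, and the difference from WT was -2.10 for AT2G34910 (adjusted p = 0.00363) and -2.01 for AT2G47540 (adjusted p = 0.00693). The related MOP10 (-2.15) and AT3G09925 (-1.65) fell too, as did the MYB factor gene MYB50 (-2.37) and the wall synthesis gene ATCSLB05 (-2.28), which has a near-identical copy, AT4G15320, with which it may share reads. AGP3, another arabinogalactan protein, had 4.25 and 10.4 in iSPCH at 8 h, against 76.4 and 25.2 at 6 h, and fell by 2.54 (adjusted p = 0.0309, or 0.135 without iSPCH 8 h A). The AGP3 call was also lost without WT 6 h A (adjusted p = 0.0584), WT 6 h B (0.0601) or WT 8 h A (0.0507). AT5G57625, of the CAP family of secreted proteins, fell by 2.18 (adjusted p = 0.0339), a call lost without iSPCH 8 h A, iSPCH 8 h B, WT 6 h A or WT 6 h B, at an adjusted p of up to 0.222.

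**Figure D3:**
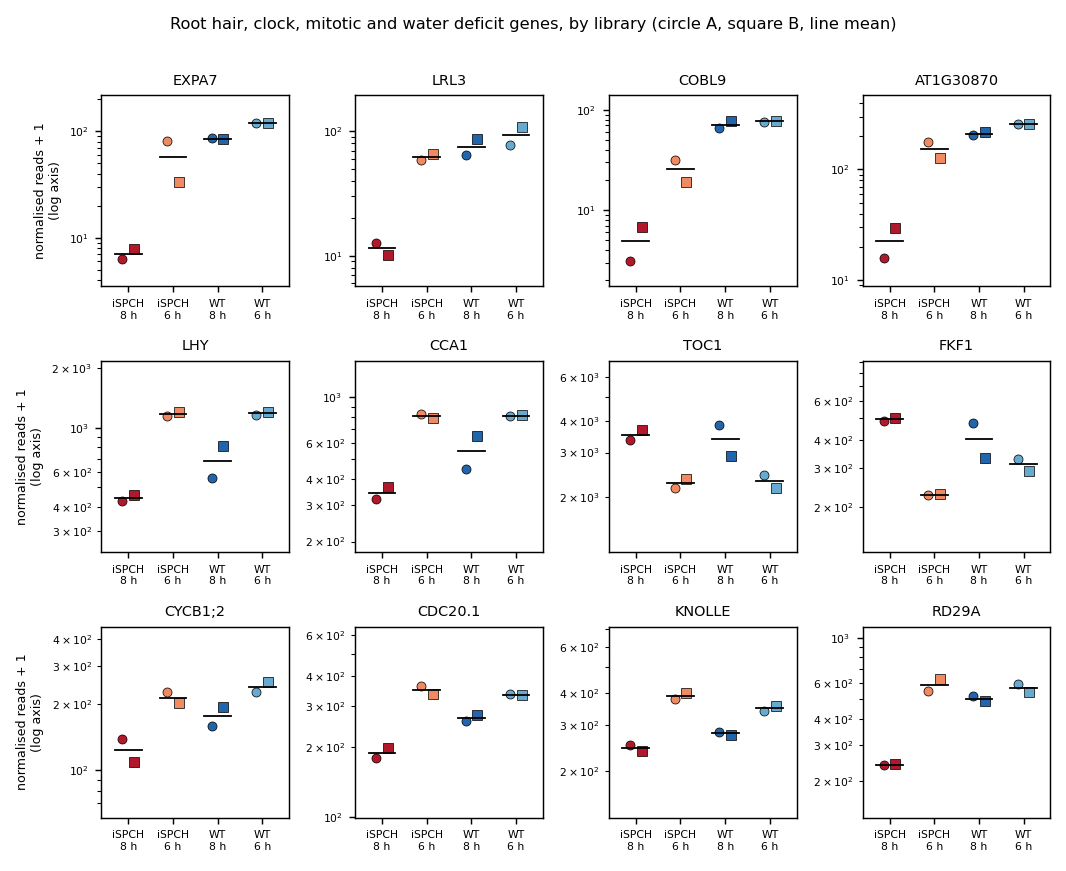
Normalised counts plus 1 (log axis) of root hair, clock, mitotic and water deficit genes in each library, iSPCH at 8 h and 6 h and then WT at 8 h and 6 h, circles for library A, squares for library B and a line for the mean. For EXPA7, LRL3 and COBL9 the 2 libraries of iSPCH at 8 h are the lowest of the 8.

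The steepest increase was that of CYP71A12. CYP71A12 (AT2G30750; chromosome 2, 13099486 to 13101371), a cytochrome P450 of the camalexin and indole route of defence, had 240 and 32.3 normalised counts in iSPCH at 8 h, against 2.36 and 1.40 at 6 h. In WT it had 3.49 and 4.53 at 8 h, against 3.79 and 10.1 at 6 h. Both 8 h iSPCH libraries were above every other library, and they differed from each other by more than 7-fold. The change was 4.98 ± 0.85 (31.5-fold, adjusted p = 0.00191), or an adjusted p of 0.121 with edgeR. Its difference from WT was 5.52 (adjusted p = 0.0368). That call was lost without iSPCH 6 h B or any WT library. It was also lost with 0.1 or 5 added, without the robust option, and with edgeR (adjusted p = 0.656). Of 9 genes around camalexin synthesis, CYP71A12, NAC042, WRKY33 and GSTF6 rose. The calls of CYP71A12 and NAC042 could not be tried without iSPCH 8 h library A or B, because neither gene was then tested. Testing asked for at least 1 CPM in 2 of 11 libraries, and both genes met this only through the iSPCH libraries at 8 h. They entered the test through the high values being compared, so their p-values do not allow for that selection. The same limit holds for AT1G26380, AT1G26410, AT1G14550, CCOAMT, HSP17.4, HSP17.6A and AT5G57010, given below. Of all genes tested, 3.98% rose. The enzyme genes CYP71A13, PAD3, CYP79B2 and CYP79B3 were not called, with values of -0.01, 0.20, -0.17 and -0.22. NAC042, a factor that promotes camalexin synthesis, had 83.9 and 47.3 in iSPCH at 8 h, against 10.2 and 4.20 at 6 h, a change of 3.07 (adjusted p = 0.00207).

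The berberine bridge enzyme-like proteins, some of which oxidise cell wall fragments or defence metabolites, held several of the steepest increases. Of 17 tested genes, 8 rose and none fell in iSPCH, with a median of 0.44, against -0.16 in WT, and 3.98% of all genes rose. The 8 became 4 without iSPCH 8 h library A and 5 without 8 h library B. AT1G26410 had 118 and 68.1 normalised counts in iSPCH at 8 h, against 4.73 and 1.40 at 6 h, a change of 4.61 (adjusted p = 0.00112). AT1G26380 had 415 and 105 at 8 h, against 16.5 and 4.20 at 6 h, a change of 4.46 (adjusted p = 0.00470, or 0.102 with only the compared groups fitted and 0.0532 with edgeR). AT1G26420 rose by 2.97, AT1G30700 by 1.18 (adjusted p = 5.6e-05) and AT1G30730 by 1.09. These genes were all higher in both 8 h libraries, and AT1G26410 and AT1G26380 were not tested when either of those libraries was left out. The difference test called 5 of the 17, all more positive in iSPCH, beside 0.889% of all genes.

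Of the 7 genes that rose under the peroxidase product name, AT1G14550 and PER4 rose the most. PER4 had 1553 and 1094 normalised counts in iSPCH at 8 h, against 299 and 255 at 6 h. The WT values were 279 and 368 at 8 h, against 356 and 430 at 6 h. The change of 2.24 ± 0.18 (adjusted p = 4.5e-05) exceeded that of WT by 2.52 (adjusted p = 0.000842). AT1G14550 had 112 and 31.1 in iSPCH at 8 h, against 5.52 and 0.00 at 6 h (adjusted p = 0.00551, or 0.0672 with 0.1 added in place of 1 and 0.0510 with only the compared groups). AT1G14550 was not tested without iSPCH 8 h library A or B. DOX1, an oxygenase that makes oxylipins in defence, had 15067 and 13072 at 8 h, against 6813 and 6072 at 6 h. It rose by 1.13 and differed from WT by 1.69 (adjusted p = 0.000244), where it fell by 0.57 (adjusted p = 0.0392, a WT call lost without WT 6 h A, 6 h B or 8 h A).

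The 15 steepest increases hold genes outside the lists. CCOAMT, annotated as a methyltransferase of caffeoyl-CoA, had 144 and 65.8 normalised counts in iSPCH at 8 h, against 11.03 and 5.60 at 6 h, a change of 3.47 (adjusted p = 0.00101). CCOAMT was not tested without iSPCH 8 h library A or B. AT2G43620, a chitinase gene, had 430 and 358 at 8 h, against 65.4 and 28.0 at 6 h. It rose by 3.16 (adjusted p = 0.0150, or 0.0560, 0.0775 and 0.0676 without iSPCH 6 h B, 8 h A and 8 h B). AT1G13520, of unknown function, had 268 and 195 in iSPCH at 8 h, against 48.8 and 22.4 at 6 h, and in WT 38.4 and 43.1 at 8 h, against 49.3 and 54.3 at 6 h. The iSPCH libraries at 8 h were the high ones, and the change of 2.75 (adjusted p = 8.6e-05) exceeded that of WT by 3.09 (adjusted p = 0.00276). AT2G46495, a RING-type protein, had 131 and 127 at 8 h, against 28.4 and 21.005 at 6 h, a change of 2.35 that exceeded that of WT by 2.40 (adjusted p = 0.00276). The zinc finger factor gene ZAT11 had 94.5 and 114 in iSPCH at 8 h, against 26.8 and 22.4 at 6 h. It rose by 2.04 and differed from WT by 2.54 (adjusted p = 0.00280). AT1G36622, uncharacterised, had 144 and 126 in iSPCH at 8 h, against 29.9 and 35.0 at 6 h, and in WT 20.08 and 13.6 at 8 h, against 37.9 and 27.2 at 6 h. In that gene the lines moved apart, by 2.94 (adjusted p = 0.00326), and AT1G13520, AT2G46495, ZAT11 and AT1G36622 kept both calls in every alternative.

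Glutathione transferases attach glutathione to reactive compounds. Of 34 tested genes of the tau and phi classes, 10 rose and 1 fell, beside 3.98% and 3.63% of all genes. The difference test called 6, all more positive in iSPCH, beside 0.889% of all genes. The 10 were 9, 9, 9 and 10 without iSPCH 6 h A, 6 h B, 8 h A and 8 h B. GSTF7 had 6075 and 3914 normalised counts in iSPCH at 8 h, against 1212 and 826 at 6 h. WT seedlings had 836 and 1133 at 8 h, against 840 and 1180 at 6 h. The iSPCH change was 2.28 (adjusted p = 0.00849), and in the WT libraries the hours overlapped. The difference from WT was not called for GSTF7 or for GSTF6. GSTF6 rose by 1.82 (adjusted p = 0.00843, or 0.0586 without iSPCH 6 h B) and GSTU4 by 1.63. Of 46 tested WRKY genes, a class of defence and stress factors, 12 rose and 1 fell, beside 3.98% and 3.63% of all genes. The 12 became 5 without iSPCH 8 h library A. WRKY31 rose by 1.40 (adjusted p = 0.000175) and differed from WT by 1.69, and WRKY33 rose by 0.77 (adjusted p = 0.00244). WRKY33 and WRKY53 are counted in these 12 and again in the next list. WRKY33 and GSTF6 were also counted among the camalexin genes above, so these groups are not separate observations. In the list of touch and defence response genes 4 of 12 rose (beside 3.98% of all genes), namely WRKY33, WRKY53 (0.69), ERF5 (0.84) and ZAT12 (0.82). The last 3 calls were lost without 1 or more of the iSPCH libraries, and the count of 4 became 2 without 6 h A, 2 without 6 h B and 1 without 8 h A. In the jasmonate list of 17, JAZ10 (0.84) and JAZ2 (0.37) rose and JAZ9 fell by 0.61, beside 3.98% and 3.63% of all genes. All 3 code for repressors of the pathway, and the calls of JAZ10 and JAZ2 were lost without several of the iSPCH libraries. The ankyrin-repeat gene ACD6, a promoter of salicylic acid defence, had 153 and 158 in iSPCH at 8 h, against 23.64 and 28.01 at 6 h. Its counts in WT were 78.6 and 54.4 at 8 h, against 25.6 and 29.2 at 6 h. It rose in both lines, by 2.55 in iSPCH (adjusted p = 2.4e-05) and by 1.23 in WT (adjusted p = 0.0304, or up to 0.496 without a WT library).

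**Figure D4:**
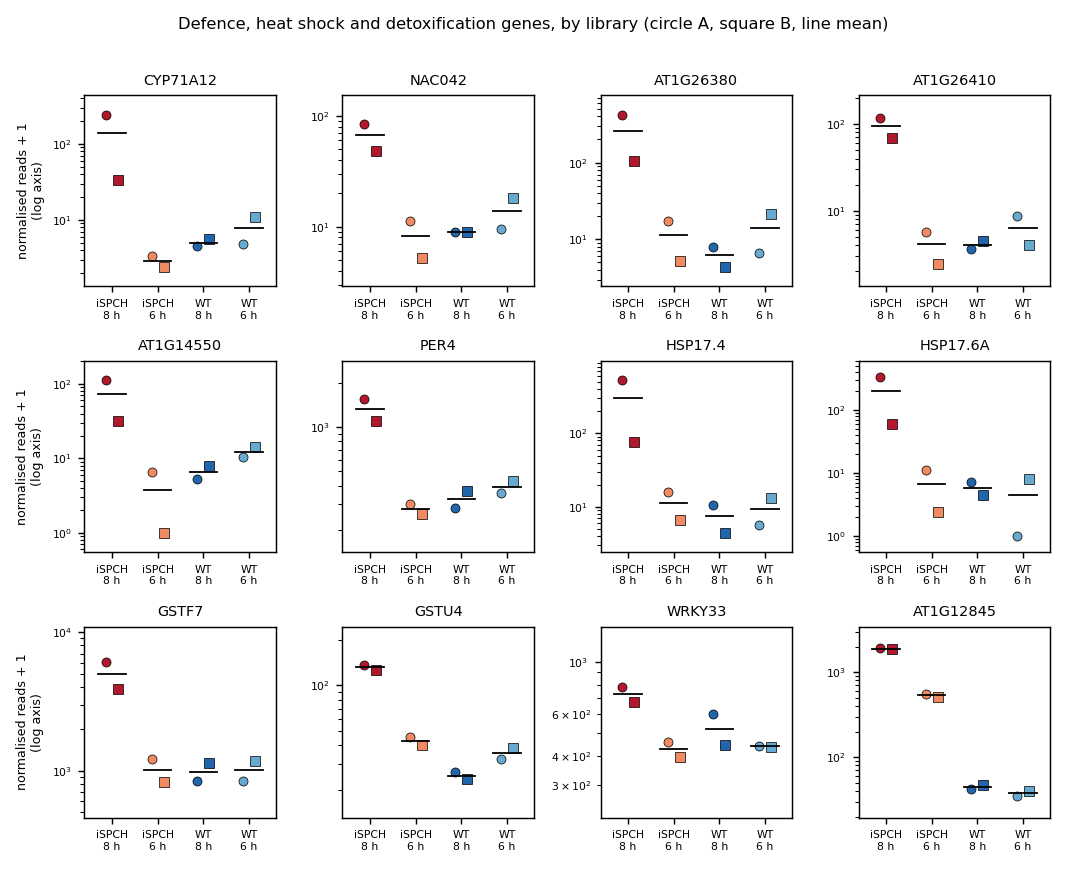
Normalised counts plus 1 (log axis) of defence, heat shock and detoxification genes in each library, iSPCH at 8 h and 6 h and then WT at 8 h and 6 h, circles for library A, squares for library B and a line for the mean. In iSPCH at 8 h, library A exceeds library B more than 7-fold for CYP71A12 and HSP17.4, while the 2 libraries lie close for AT1G12845.

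For several of these genes the libraries of a pair lay far apart. Of the 784 genes that rose, 12 had at least 2 times the normalised count in 8 h library A that they had in 8 h library B, and none the reverse. Inside the 6 h pair 20 of them had at least 2 times the count in library A, and none the reverse. Over all 18406 genes with 20 reads or more in the 8 h pair, 41 had at least 2 times as much in library A and 8 in library B. Over the 18207 such genes of the 6 h pair, the counts were 37 and 36. Of the 715 genes that fell, 13 had at least 2 times the count in 6 h library A, and none the reverse. In the 8 h pair, 6 of these had it in library A and 16 in library B. HSP17.4 (AT3G46230), a small chaperone of the heat response, had 533 and 75.0 in iSPCH at 8 h, against 14.97 and 5.60 at 6 h. HSP17.6A had 336 and 60.0 at 8 h, against 10.2 and 1.40 at 6 h. Both were higher in both 8 h libraries than at 6 h. HSP17.4 rose by 4.29 (adjusted p = 0.0115, or 0.0859 without iSPCH 6 h B, 0.188 with only the compared groups and 0.0978 with edgeR). HSP17.6A rose by 4.79 (adjusted p = 0.0199, or 0.119 without iSPCH 6 h B and 0.132 with 0.1 added). HSP90.1 rose by 0.80 (adjusted p = 0.0113, or 0.0666 without iSPCH 6 h B and 0.0777 without 8 h A). In the whole heat shock list, 3 of 9 genes had enough reads to be tested, and its summed counts were 1760 and 864 in iSPCH at 8 h, against 655 and 576 at 6 h. In the small heat shock protein family, 4 of 29 tested genes rose, beside 3.98% of all genes. These calls did not all hold when an iSPCH library of either hour was left out. HSP17.4 and HSP17.6A, among the 4, were not tested when 8 h library A or B was left out.

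AT1G12845, which codes for an uncharacterised protein and was named after its values were seen, showed no such split. It had 1902 and 1856 normalised counts in iSPCH at 8 h, against 554 and 514 at 6 h. In WT it had 41.0 and 46.5 at 8 h, against 34.1 and 39.2 at 6 h. The change was 1.81 ± 0.13 (adjusted p = 4.9e-06) and exceeded that of WT by 1.57 (adjusted p = 0.000842).

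Among the called clock genes, morning genes fell and evening genes rose between the hours in iSPCH. Of 20 listed genes, 5 rose and 6 fell in iSPCH, beside 3.98% and 3.63% of all genes. The other 9 were not called, among them GI, ELF3, ELF4, BOA, PRR7 and PRR9. In WT, limma called LHY and LNK2, both lower, edgeR called 3 and DESeq2 called 5, and 16 of the 20 had an unadjusted p under 0.05. The difference from WT was called for none of the 20 by limma, edgeR or DESeq2, although 7 had an unadjusted p under 0.05. The morning factor LHY (AT1G01060; chromosome 1, 33365 to 37871) had 425 and 458 normalised counts in iSPCH at 8 h, against 1152 and 1203 at 6 h. The WT values were 557 and 806 at 8 h, against 1161 and 1205 at 6 h. It fell in both lines, with a change of -1.41 ± 0.13 in iSPCH (adjusted p = 6.2e-05) and -0.82 in WT (adjusted p = 0.0220, or up to 0.361 without a WT library). The related CCA1 fell by 1.25 in iSPCH (adjusted p = 0.000194), and LNK2, LNK1, RVE8 and RVE1, which work with these factors, fell by 0.97, 0.56, 0.89 and 0.80. The called evening genes moved the other way. FKF1, a blue light receptor for day length, had 485 and 503 in iSPCH at 8 h, against 225 and 227 at 6 h, and in WT 477 and 331 at 8 h, against 329 and 290 at 6 h. It rose by 1.13 in iSPCH (adjusted p = 0.000292). TOC1, the evening repressor, had 3356 and 3679 at 8 h, against 2173 and 2346 at 6 h, a rise of 0.64 (adjusted p = 0.00401). LUX rose by 0.57 (adjusted p = 0.00594, or 0.0590 without iSPCH 8 h B), PRR5 by 0.63 and PRR3 by 0.85.

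The evening element AAAATATCT is a site that LHY, CCA1 and related factors are known to bind, and both strands of the 250 bases upstream were searched for it. It was present in 2.36% of the 27437 promoters. Among the 5 clock genes that rose it was present in TOC1, PRR5, LUX and FKF1 and not in PRR3. The other listed clock genes were not looked at for it, so the element is not shown to set the genes that rose apart. The windows of 3 of them are shown with the element in capitals (RefSeq, TAIR10.1), TOC1 at chr5:24674713-24674962, LUX at chr3:17182792-17183041 and FKF1 at chr1:25508389-25508638, all on the plus strand.
TOC1: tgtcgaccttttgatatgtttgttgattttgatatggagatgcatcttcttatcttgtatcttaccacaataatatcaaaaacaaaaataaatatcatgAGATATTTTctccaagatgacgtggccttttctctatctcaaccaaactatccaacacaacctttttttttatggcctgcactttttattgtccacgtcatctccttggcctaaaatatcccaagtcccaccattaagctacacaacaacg
LUX: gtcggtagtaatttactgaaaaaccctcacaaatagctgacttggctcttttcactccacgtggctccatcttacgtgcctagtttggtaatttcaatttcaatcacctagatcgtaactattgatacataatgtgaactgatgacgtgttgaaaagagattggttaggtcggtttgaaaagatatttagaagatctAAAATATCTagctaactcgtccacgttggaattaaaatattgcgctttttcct
FKF1: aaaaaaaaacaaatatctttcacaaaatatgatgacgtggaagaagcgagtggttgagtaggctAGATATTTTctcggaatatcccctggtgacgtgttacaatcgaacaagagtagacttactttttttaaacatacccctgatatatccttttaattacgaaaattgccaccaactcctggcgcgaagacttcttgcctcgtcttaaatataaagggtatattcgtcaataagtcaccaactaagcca
Each window holds the element once, on one strand or the other. A match of letters is a description of the sequence and not a measured site.

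Genes called in both lines in one direction numbered 41, with 12 higher and 29 lower, while 3 were called in opposite directions. Besides LHY and LNK2, the lower ones include the carotenoid enzyme BETA-OHASE 2, which fell by 1.49 in iSPCH and 0.60 in WT, and the photoprotection gene NPQ4, which fell by 1.23 in iSPCH and 0.72 in WT. The dirigent-like gene AT4G11190 fell by 2.37 in iSPCH and 2.02 in WT. The higher ones include the clock-linked genes JMJD5, at 0.85 in iSPCH and 0.69 in WT, and COL9, at 0.70 in iSPCH and 0.58 in WT. The WT call of each of these genes, LHY and LNK2 included, was lost when a WT library was left out. For BETA-OHASE 2 the fall was deeper in iSPCH by 0.89 (adjusted p = 0.00428).

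Genes of mitosis and cytokinesis were lower at 8 h. Of 23 tested mitotic genes, 7 fell and none rose in iSPCH, beside 3.63% of all genes that fell, with a median of -0.49. The 7 became 4 without iSPCH 6 h library A, 4 without 6 h library B, 5 without 8 h library A and 5 without 8 h library B. In WT the median was -0.31, and neither the WT change (8 at an unadjusted p under 0.05) nor the difference (4) was called for any by limma, edgeR or DESeq2. CDC20.1 (AT4G33270; chromosome 4, 16044169 to 16046937), an activator of the anaphase-promoting complex, had 178 and 196 normalised counts in iSPCH at 8 h, against 362 and 335 at 6 h. WT seedlings had 257 and 273 at 8 h, against 335 and 332 at 6 h. The 8 h libraries were the lower ones in each line, and the iSPCH change was -0.89 (adjusted p = 0.000195). The mitotic cyclin gene CYCB1;2 had 137 and 107 in iSPCH at 8 h, against 226 and 202 at 6 h, a fall of 0.81 (adjusted p = 0.00294). KNOLLE, the syntaxin of the cell plate, had 252 and 238 at 8 h, against 378 and 398 at 6 h, a fall of 0.66 (adjusted p = 0.00167). CDC20.2 fell by 0.69, HINKEL by 0.76, CYCB1;4 by 0.69 and CYCB2;2 by 0.69. The last 3 calls were lost without several of the iSPCH libraries. None of 21 S phase genes and none of 8 D-type cyclin genes was called in iSPCH by limma, edgeR or DESeq2, and 3 and 2 of them had an unadjusted p under 0.05. Of 9 CDK inhibitor genes 1 fell, KRP2, by 0.82 (adjusted p = 0.0384, lost without any of 6 libraries).

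The promoters of mitotic cyclin genes are known for sites of 3-repeat MYB factors with the core AACGG. In the 250 bases upstream, searched on both strands, that core was present in 20.6% of all 27437 promoters and in 4 of the 7 mitotic genes that fell, CYCB1;2, CYCB2;2, KNOLLE and HINKEL. The listed mitotic genes that were not called were not looked at for it. The windows with the most matches are shown with the core in capitals (RefSeq, TAIR10.1), CYCB1;2 at chr5:1861704-1861953 on the minus strand with 4 and CYCB2;2 at chr4:16901346-16901595 on the plus strand with 3.
CYCB1;2: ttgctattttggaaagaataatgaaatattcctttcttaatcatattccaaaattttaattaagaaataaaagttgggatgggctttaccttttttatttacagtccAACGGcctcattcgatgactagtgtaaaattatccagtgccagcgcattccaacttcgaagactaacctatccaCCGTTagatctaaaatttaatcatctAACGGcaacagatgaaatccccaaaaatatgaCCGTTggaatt
CYCB2;2: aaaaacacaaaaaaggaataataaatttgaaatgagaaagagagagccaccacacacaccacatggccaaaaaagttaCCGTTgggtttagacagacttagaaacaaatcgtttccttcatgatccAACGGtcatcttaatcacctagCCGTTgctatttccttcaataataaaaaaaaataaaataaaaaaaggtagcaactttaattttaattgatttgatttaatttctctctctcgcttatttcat
CYCB2;2 had 43.5 and 55.4 normalised counts in iSPCH at 8 h, against 75.6 and 84.0 at 6 h, and its fall of 0.69 had an adjusted p of 0.0353.

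Several auxin genes fell, beside 3.63% of all genes that were called lower. In the auxin list of 22, 6 fell and none rose, and 3 fell without iSPCH 6 h library A and 2 without 8 h library B. The repressor gene IAA17 fell by 0.60 (adjusted p = 0.000298), a call that held in every alternative. PIN3, an efflux carrier gene, fell by 0.55, LAX2, an influx carrier gene, by 0.85, IAA3 by 0.53 and IAA2 by 0.35, and these 4 calls were each lost without 1 or more iSPCH libraries. Of 14 cytokinin genes the response regulator genes ARR7 (-0.94) and ARR9 (-0.36) fell, and of 19 brassinosteroid genes only BR6OX2, a late enzyme of synthesis, fell, by 0.59 (adjusted p = 0.00414). Of 10 vascular genes XCP2, ATHB8 and IRX3 fell. The share of all genes that fell, 3.63%, stands beside the cytokinin, brassinosteroid and vascular counts. The calls of ARR7, ARR9, XCP2, ATHB8 and IRX3 were each lost without 1 or more iSPCH libraries, and that of BR6OX2 held in every alternative. None of 12 hypoxia genes and none of 5 sugar starvation genes was called by limma, edgeR or DESeq2, and 2 and 1 had an unadjusted p under 0.05. Of 9 trichome and hair-pattern genes ETC2 rose, by 1.21 (adjusted p = 0.0204, or up to 0.120 without an iSPCH library).

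Genes of cold and water deficit split. RD29A (AT5G52310; chromosome 5, 21240717 to 21243644), a dehydration-induced protective protein, had 238 and 241 normalised counts in iSPCH at 8 h, against 548 and 627 at 6 h. Its counts in WT were 516 and 492 at 8 h, against 594 and 541 at 6 h. Only iSPCH at 8 h stood apart. The change of -1.29 ± 0.09 (adjusted p = 4.7e-06) was deeper than that of WT by 1.12 (adjusted p = 0.000796), and both calls held in every alternative. RD29B (-0.87), KIN2 (-0.59) and ERD10 (-0.45) also fell, calls that were each lost without at least 2 of the iSPCH libraries taken singly. RAB18 (AT5G66400), a dehydrin responsive to abscisic acid, had 133 and 136 in iSPCH at 8 h, against 51.2 and 39.2 at 6 h, a rise of 1.56 (adjusted p = 0.000430). In WT RAB18 had 210 and 147 at 8 h, against 158 and 109 at 6 h. Of the 10 listed genes 1 rose and 4 fell, beside 3.98% and 3.63% of all genes. The 4 became 2 without iSPCH 6 h library A and 1 without 8 h library B.

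For the 10 listed photosynthesis genes the reads per library could not be recovered, and only the authors' group means can be given, with no test. The authors' mean for RCA, which activates Rubisco, was 31303 in iSPCH at 8 h, against 60131 at 6 h, and in WT 53319 at 8 h, against 80615 at 6 h. The authors' mean for RBCS1A, a small subunit of Rubisco, was 147336 in iSPCH at 8 h, against 228069 at 6 h, and in WT 195434 at 8 h, against 254458 at 6 h. For LHCB1.3, a light-harvesting protein, it was 674085 in iSPCH at 8 h, against 649154 at 6 h. In each line, the authors' means of 9 of the 10 genes were lower at 8 h, LHCB1.3 being the exception.

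**Figure D5:**
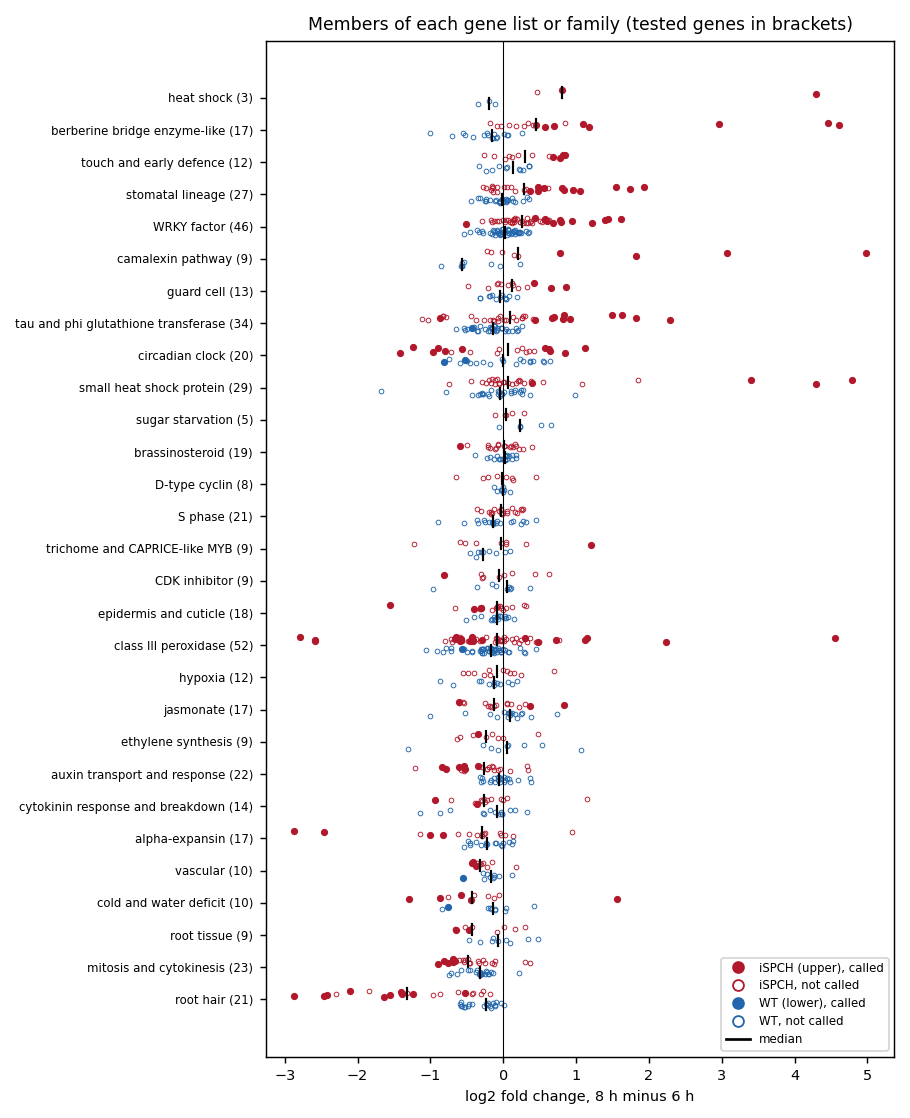
Change from 6 h to 8 h (log2 of normalised count plus 1) of every tested gene in each list, iSPCH above WT in each row, with the median marked and called genes filled. The iSPCH medians of the root hair list (-1.33), the mitosis list (-0.49) and the stomatal list (0.29) stand apart from that of all genes (-0.01). Other lists do so too, among them heat shock (0.80), touch and early defence (0.30) and root tissue (-0.43). The mitosis median was -0.31 in WT.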

How the data were processed

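RNA-seq libraries came from poly-A RNA of whole seedlings. Per the submitters' processing notes, CASAVA 1.8, TopHat and DESeq were used with the TAIR10 build. The table that the authors deposited holds signal values, which are group means of normalised read counts, 6 means for 33602 genes, and no library values. Whole reads were recovered here from the steps of those means for 33515 genes. The 87 others, with 27.0% of the reads, stayed out of the tests. Which library carries which replicate number of the labels could not be traced, so A and B are names by depth. The recovery and the test were checked on simulated data.

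Genes with at least 1 CPM in 2 of 11 libraries (19691) were tested on log2 of the normalised count plus 1 with limma 3.58.1 (trend, robust, R 4.3.3) over all 6 groups, at an FDR of 0.05 (Benjamini-Hochberg). The contrasts were, 8 h minus 6 h in iSPCH, in WT, and their difference. Alternatives used edgeR 4.0.16, DESeq2 1.42.0, other scalings, filters and added values, and the removal of each library. A call is said to hold in every alternative if it held in each one that tested the gene. Members and gene lists were chosen with earlier results of these data known. Apart from SPCH, named genes are the 15 largest changes each way among called genes whose hours do not overlap in iSPCH, called stomatal genes, 5 genes per other list, 10 differences each way and 5 shared changes each way. Of these 157, 6 have a near-identical copy and 40 overlap another gene, and strand use in counting is not given in the sources used here. Other genes named were added after values were seen. Names, positions and promoters are from RefSeq TAIR10.1, which matched 32835 of 33602 loci. Intervals and p-values rest on 2 libraries per group. Depth was 15553670 to 32807092 assigned reads. Some genes are not reported here.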

Additional observations from a re-analysis of the deposited data

Results flagged for a closer look

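For 32 named genes the change between 8 h and 6 h in iSPCH differed from the change in WT over the same hours (limma, test of the difference, adjusted p under 0.05), out of 220 such genes in all. Values below are the iSPCH change minus the WT change on the log2 scale.

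In the stomatal lineage the difference was 2.18 for POLAR, 1.90 for BASL, 1.29 for ERL1, 0.90 for TCX2, 0.67 for SCRM2 and 0.51 for ICE1, and in guard cells 0.69 for CHX20. POLAR and BASL kept the call when any 1 library was left out, while ERL1, TCX2, SCRM2, ICE1 and CHX20 lost it for at least 1, at adjusted p of up to 0.187, 0.0582, 0.0590, 0.235 and 0.215.

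Among other genes with a more positive change in iSPCH it was 5.52 for CYP71A12, 5.46 for AT1G26380, 5.17 for AT1G26410, 3.63 for NAC042, 3.14 for AT5G57010 (a calmodulin-binding protein), 3.09 for AT1G13520, 3.01 for AT5G38900, 2.54 for ZAT11 and 2.40 for AT2G46495. It was 2.999 for AT1G49000 and 2.94 for AT1G36622, both uncharacterised. CYP71A12, AT1G26380, AT1G26410, NAC042 and AT5G57010 were not tested when iSPCH 8 h library A or B was left out. With 1 library left out, AT1G13520, AT5G38900, ZAT11, AT2G46495 and AT1G36622 kept the call, and CYP71A12, AT1G26380, AT1G26410, NAC042, AT5G57010 and AT1G49000 lost it at adjusted p of up to 0.208, 0.196, 0.155, 0.175, 0.156 and 0.120.

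On the lower side it was -2.49 for AT1G30870, -2.38 for EXPA7, -2.31 for COBL9, -2.15 for LRL3, -2.10 for AT2G34910, -2.01 for AT2G47540, -1.86 for MYB50, -1.54 for AT3G09925, -1.53 for CYP718, -1.51 for AGP30, -1.12 for RD29A, -0.89 for BETA-OHASE 2 and -0.62 for JAZ9. EXPA7, COBL9, MYB50 and JAZ9 lost the call without 1 library, at adjusted p of up to 0.127, 0.128, 0.194 and 0.148, and the other 9 kept it. For CSD2 the difference was -1.64, with the change in WT and not in iSPCH.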

How the results depend on the processing

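No paired analysis was possible because the recovered libraries carry no replicate number of the labels. The 1499 genes called in iSPCH became 851 with only the compared groups fitted and 278 with a 2-fold minimum, and ranged from 759 to 1504 with 1 library left out. The 83 genes called in WT became 37 with no filter on low reads, 174 with only the compared groups, 129 with edgeR, 184 with DESeq2, 10 with a 2-fold minimum and 232 without iSPCH 6 h library B and 8 h library A together, an alternative chosen after seeing the data, and ranged from 5 to 199 with 1 library left out. The 220 genes of the difference became 114 with a 2-fold minimum and ranged from 105 to 326. Of 104 called named genes, 52 kept their call in every alternative that tested them, and none changed direction where tested. Among the 52, NAC042, CCOAMT and AT1G26410 were not tested without iSPCH 8 h library A or B. Their calls are therefore not shown to survive the removal of either library. Depth and 2 libraries per group limit what can be called.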

Other observations

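Several copper genes changed in WT between 6 h and 8 h, and for some of them the change differed from that in iSPCH. CSD1 (0.72), CCH (-0.66) and COPT2 (-1.36) changed in WT (limma, adjusted p = 0.0142, 0.00234 and 0.0259). Each of those calls was lost without some WT library, and the difference between the lines was called for none of them. All copper genes given here were picked after their values were seen. CSD2, the copper/zinc superoxide dismutase of chloroplasts, had 2268 and 2630 normalised counts in iSPCH at 8 h, against 3103 and 2385 at 6 h, which overlap. In WT it had 5837 and 6184 at 8 h, against 2502 and 1853 at 6 h, a change of 1.48 (limma, adjusted p = 0.00234, or 0.0777 without WT 8 h library A). CCS, the chaperone that loads copper into these enzymes, had 1511 and 1504 in iSPCH at 8 h, against 1539 and 1358 at 6 h. In WT CCS had 2524 and 2648 at 8 h, against 1412 and 1169 at 6 h. Its WT change was 1.01 (adjusted p = 0.000459) and its difference between the lines was -0.95 (adjusted p = 0.00426), both kept in every alternative. FSD1, the iron enzyme that replaces CSD2 when copper is short, moved the opposite way. It had 5906 and 6060 in iSPCH at 8 h, against 7949 and 8258 at 6 h, and in WT 3768 and 3713 at 8 h, against 7337 and 6996 at 6 h. It fell in both lines, by 0.44 in iSPCH (adjusted p = 0.00229) and by 0.94 in WT (adjusted p = 7.4e-05). The difference of 0.50 (adjusted p = 0.0358) was lost without any 1 of 7 libraries. The metal transporter gene ZIP2 rose by 0.54 in iSPCH (adjusted p = 0.0144, or 0.133 without a library) and fell by 0.95 in WT (adjusted p = 0.00339, or 0.129), a difference of 1.49 (adjusted p = 0.000842) kept in every alternative.

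JAZ8, a jasmonate repressor gene named after its values were seen, had 31.9 and 0.00 normalised counts in iSPCH at 8 h, against 70.1 and 0.00 at 6 h, so the reads lay in 1 library of each pair. In WT it had 0.87 and 0.00 at 8 h, against 0.95 and 1.01 at 6 h.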
